A study of Homo sapiens with 8 samples.

Results

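KMT2A was described through the binding sites that eCLIP of IGF2BP1 placed on its RNA in H1299 cells, an established human non-small cell lung carcinoma line labelled WT, after DMSO or AVJ16. AVJ16 is a small molecule inhibitor of IGF2BP1. The members are the peaks of the deposited DMSO list and the deposited AVJ16 list that lie on the plus strand within the GENCODE gene KMT2A (ENSG00000118058). There were 47 such peaks among 22311 with DMSO and 77 among 22123 with AVJ16. The gene was chosen by its number of peaks in the AVJ16 list, where no gene held more, so its peak counts are given as a description without a test.

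Cells received 0.01% DMSO or 1.5 µM AVJ16 for 24 h, were irradiated with UV light of 254 nm at 400 mJ/cm2, and gave 2 IP and 2 size-matched input (SMInput) libraries per treatment, 8 in all. Each treatment used 2 culture plates, and per the labels all samples go back to a single thaw of the line. In eCLIP, RNA crosslinked to a protein is pulled down with an antibody (IP) and sequenced beside an SMInput library prepared without that antibody, and a peak is a stretch where IP reads stand above SMInput reads. Each peak carries a log2 fold enrichment (IP over SMInput) and a −log10 p, which stops at 400, and only peaks that reached 3 on both scales were listed. Both libraries of a treatment were merged before deposition. The values therefore have no error between replicates, the depth of the libraries is unknown, and every comparison of the treatments below is a description. Intervals of shares are 95% Wilson intervals and cover counting error only.

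KMT2A, also known as MLL or MLL1, is a large nuclear methyltransferase that places methyl groups on lysine 4 of histone H3. The protease TASP1 cleaves it, it works in a complex with WDR5, RBBP5, ASH2L and DPY30, menin tethers it to chromatin, and HOX genes are its classical targets. In acute leukaemia, translocations fuse its front part to partner proteins. IGF2BP1 is an oncofoetal RNA-binding protein that associates with many mRNAs, usually in the 3′UTR, and is known for protecting bound mRNAs from decay.

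The sequences below are the central bases of the peaks on which the results turn, read 5′ to 3′ from GRCh38 on the plus strand and written with T for U. Capitals mark the letters of CAU, GGAC or UCCAG, motifs whose frequency is given further on. The first group shows the coding peaks that were most enriched with AVJ16, gained most over DMSO, or reached the upper limit of −log10 p.
Exon 3, most enriched AVJ16 peak, chr11:118472989-118473016: tattttgcgagaaccgaCATttaggtgg
Exon 27, most enriched AVJ16 peak, chr11:118505955-118505984: cctacaagtagtgcgtcagtTCCAGGACac
Exon 27, DMSO peak with the largest positive difference, chr11:118505737-118505766: accgaactgtccccaaCATCATaaaaagat
Exon 27, DMSO peak with the next largest, chr11:118505176-118505205: aaactcttccaaatggagtgacccaaaaaa
Exon 27, AVJ16 peak at the limit of −log10 p, chr11:118505254-118505283: atacttcagtattgGGACcCATgggaggtg
Exon 27, other AVJ16 peak at that limit, chr11:118505676-118505705: ccctcccagcttcctaatCATccaagtctg

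The second group shows the 3′UTR peaks that were most enriched, had the largest negative differences, or stood in a single list.
3′UTR, most enriched AVJ16 peak, chr11:118524031-118524060: ctttcttacttcagagttagcaaacaacaa
3′UTR, most enriched DMSO peak and largest negative difference, chr11:118524790-118524811: cccaaaggccagtcagggggtg
3′UTR, next largest negative difference, chr11:118526440-118526469: tacaggtagttgaataattgtttcaagagc
3′UTR, most enriched peak without a DMSO partner, chr11:118524482-118524511: tgcagggagcccagcactgtggccaggatg
3′UTR, the peak that follows it, chr11:118524520-118524549: ttccttgtCATCATggagaagtgccagcag
3′UTR, the DMSO peak without an AVJ16 partner, chr11:118525808-118525833: gaaaagcgggtCATtgcaaagggctg

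IGF2BP1 peaks on KMT2A lay only in spliced exons. The gene spans 118436456 to 118526832 on chromosome 11, and its MANE Select transcript (ENST00000534358.8) has 36 exons that make an mRNA of 16600 nt, with 21 nt of 5′UTR, 11916 nt of CDS without the stop codon and 4660 nt of 3′UTR. In neither list did a peak fall in an intron, in the 5′UTR or over the stop codon. Across all genes, introns held 5.74% of peaks with DMSO and 2.20% with AVJ16. For KMT2A, 0 of 47 and 0 of 77 peaks allow intron shares of up to 7.56% and 4.75%.

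Peaks gathered in the 3 longest exons. Exon 3 (2654 nt), exon 27 (4249 nt) and exon 36 (4936 nt, of which 273 nt are coding) make up 71.3% of the mRNA. They held 47 of 47 peaks with DMSO and 73 of 77 with AVJ16, whose 4 others lay in exons 28 and 32. The other 31 exons, 65 to 453 nt long and 4505 nt together, had no peak in either list. They include every exon between exons 3 and 27, the stretch in which the leukaemia breakpoints are known to cluster.

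**Figure D1:**
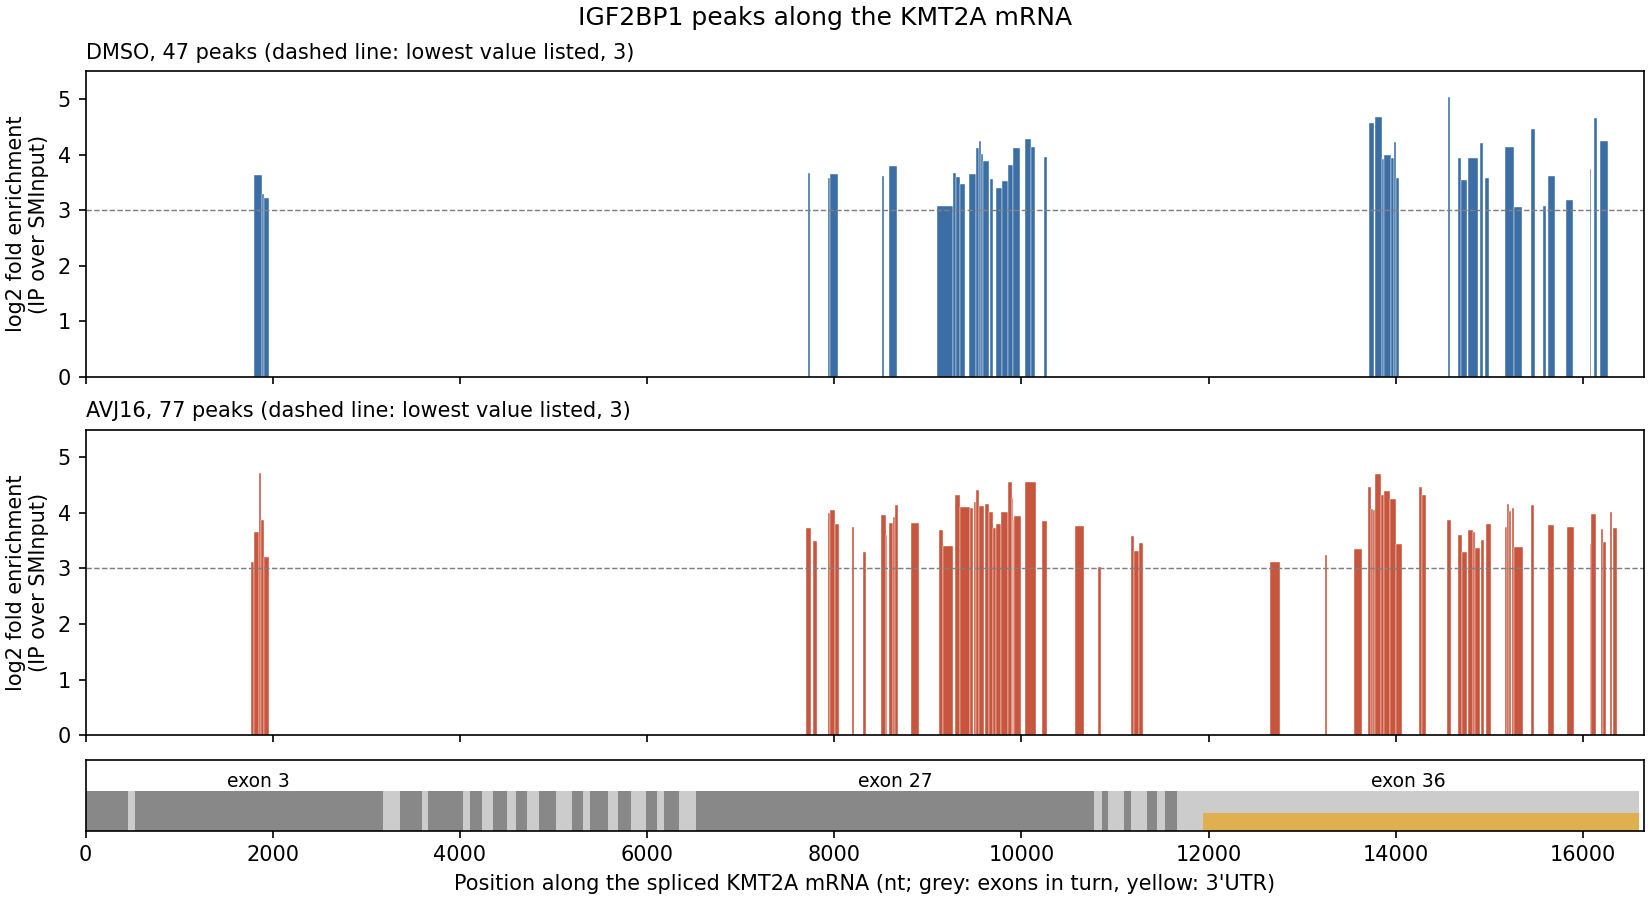
IGF2BP1 peaks along the spliced KMT2A mRNA (x axis, nt) with their log2 fold enrichment over SMInput (y axis) in the DMSO list (47 peaks, top) and the AVJ16 list (77 peaks, middle), each bar spanning 1 peak, above the exons (grey, in turn) and the 3′UTR (yellow). Peaks stand in exon 3, the rear of exon 27 and the rear of the 3′UTR in both lists, and 4 AVJ16 peaks lie between exon 27 and exon 36.

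Unlike most IGF2BP1 peaks, those of KMT2A were divided nearly evenly between CDS and 3′UTR. With DMSO, 25 peaks lay in the CDS, a share of 53.2% (interval 39.2% to 66.7%), and 22 lay in the 3′UTR. With AVJ16, 42 lay in the CDS, or 54.5% (43.5% to 65.2%), and 35 in the 3′UTR. Of all peaks, 17.3% and 20.3% overlapped a CDS, shares outside both KMT2A intervals. These shares take no account of length, and the CDS makes up 11916 of the 16600 nt of the KMT2A mRNA. Peaks on 1 RNA are not independent of each other, so these intervals are too narrow. The CDS shares of the treatments differed by less than their intervals.

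The enrichment of KMT2A peaks covered a middle range of the lists. With DMSO the log2 fold enrichment ran from 3.05 to 5.04 with a median of 3.79, and with AVJ16 from 3.04 to 4.72 with a median of 3.82. The medians of all listed peaks were 3.63 and 3.61. Thus 937 DMSO peaks elsewhere (4.20%) and 1533 AVJ16 peaks (6.93%) exceeded the most enriched KMT2A peak. The −log10 p stood further apart, at a median of 31.8 with DMSO and 38.1 with AVJ16 against 12.7 and 13.2 over all peaks. By region, the DMSO medians were 3.66 in the CDS and 3.94 in the 3′UTR, whereas with AVJ16 the order turned, to 3.86 and 3.78.

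Exon 3 carried a single site near the middle of its length. The site began 1244 nt into the exon, spanned 198 nt from 118472905 to 118473102 and lay within codons 582 to 648. Its 3 DMSO peaks had log2 fold enrichments of 3.63, 3.30 and 3.23, and its 5 AVJ16 peaks had 3.12, 3.66, 4.72, 3.87 and 3.21. The highest of these, the 28 nt peak at 118472989 whose sequence opens the first group, was the most enriched AVJ16 peak of the gene. With DMSO the same bases lay in the 3′ part of the 78 nt peak at 3.63. All 8 peaks of exon 3 also overlap an exon of ENSG00000285827, a gene annotated on the same strand, and reads from the 2 genes cannot be told apart.

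Exon 27 was the most covered of the 3 long exons, and most of its shared peaks were higher with AVJ16. No peak began before position 1173 of the exon, and peaks crowded towards its rear, where 2 sites lay a single base apart. These sites, of 450 nt (118504964 to 118505413) and 452 nt (118505415 to 118505866), were the longest of the gene and lie in codons 3024 to 3325. They held 6 and 8 DMSO peaks and 7 and 10 AVJ16 peaks. Over the exon as a whole, 22 DMSO peaks ranged from 3.08 to 4.28 with a median of 3.67, and 33 AVJ16 peaks from 3.30 to 4.56 with a median of 3.95.

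The most enriched exon 27 peak lay behind these 2 sites in both lists. With DMSO it was the peak at 118505914 to 118505977, enriched by 4.28 on the log2 scale, and a peak of 4.14 followed it directly. With AVJ16 a single peak of 115 nt, from 118505912 to 118506026, covered both at 4.56. Its central bases hold UCCAG and GGAC in overlap.

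The −log10 p reached the limit of 400 at 2 KMT2A peaks, both in exon 27 and both with AVJ16. These were the peaks at 118505212 to 118505325 (log2 fold enrichment 4.11) and 118505657 to 118505724 (4.01). The DMSO peaks they overlapped most had a −log10 p of 40.0 and 60.4 and log2 fold enrichments of 3.48 and 3.53. The next highest −log10 p of the gene was 87.4, at an AVJ16 peak, and none lay between it and 400. How the value of 400 was assigned is not described in the sources used here. The size of the difference in −log10 p at these peaks is therefore unknown. Both peaks were longer than the median AVJ16 peak of the gene, at 114 nt and 68 nt against 42 nt.

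**Figure D2:**
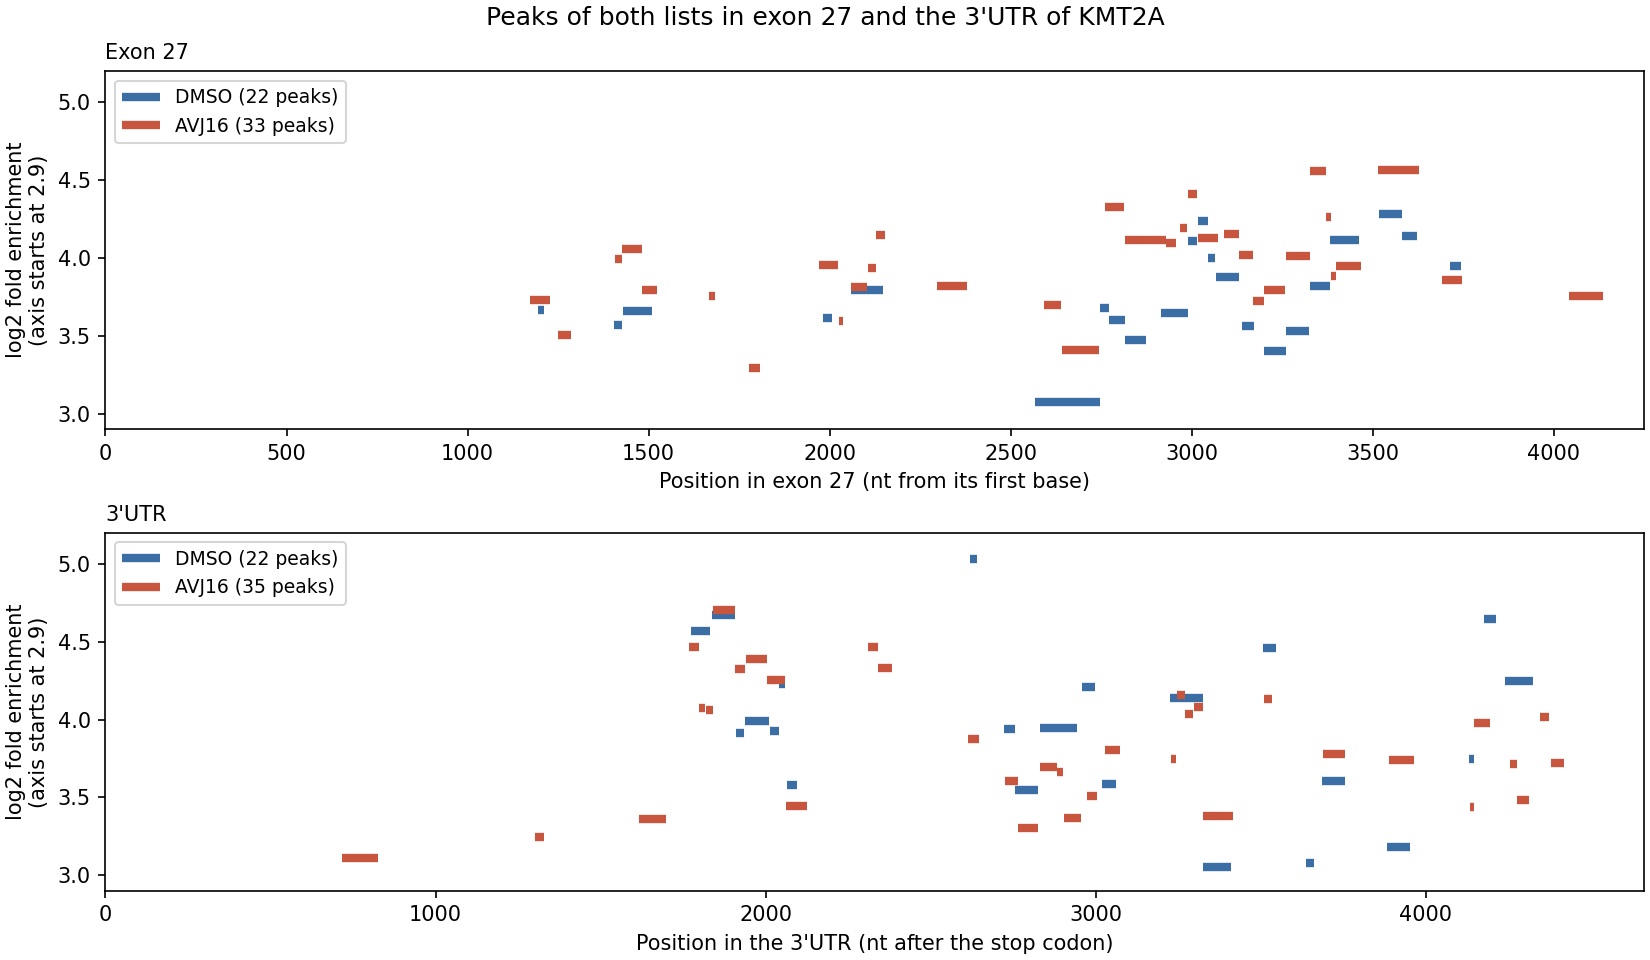
Peaks of exon 27 (top) and of the 3′UTR (bottom) drawn at their length along the RNA (x axis, nt from the first base of the exon or after the stop codon) and at their log2 fold enrichment (y axis, from 2.9), DMSO in blue and AVJ16 in red. In exon 27 most red bars lie above the blue bars they overlap, while in the rear 3′UTR the most enriched bars are blue, up to 5.04.

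In the 3′UTR, binding began far from the stop codon. The first DMSO peak started 1774 nt after the stop codon and the first AVJ16 peak 717 nt after it. The last peaks ended 336 nt and 241 nt before the end of the mRNA. The longest 3′UTR site, 357 nt from 118523940 to 118524296, held 7 DMSO peaks between 3.58 and 4.67 and 8 AVJ16 peaks between 3.45 and 4.71. Its most enriched peak was nearly the same stretch in both lists, 118524010 to 118524080 with DMSO at 4.67 and 118524012 to 118524078 with AVJ16 at 4.71. That peak also had the highest −log10 p of the DMSO peaks, 71.6, and 84.2 with AVJ16. Behind this site the 3′UTR peaks were spread over 15 further sites, 3 of them with AVJ16 peaks alone and 1 with a DMSO peak alone.

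The gene's most enriched DMSO peak lay among these sites. It was 22 nt long, from 118524790 to 118524811, and its log2 fold enrichment was 5.04 with a −log10 p of 17.0. With AVJ16 the overlapping 34 nt peak had 3.88 and 18.4. The difference in enrichment was −1.16 on the log2 scale, while the −log10 p was slightly higher with AVJ16. Its 22 bases hold none of the 3 motifs in capitals.

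Exons 28 and 32, both short and coding, had peaks with AVJ16 alone. In exon 28 (81 nt) a 35 nt peak had a log2 fold enrichment of 3.04, the lowest of all AVJ16 peaks of the gene and just inside the threshold. In exon 32 (175 nt) 3 touching peaks of 3.59, 3.32 and 3.47 covered 127 nt. All 4 values lay in the lower part of the range. A site that is missing from the DMSO list may have lain just under the threshold, and values under it were not listed. It may also have been left out when the replicates were merged, in a way that is not described. The lowest DMSO peak of the gene, at 118525498 to 118525582 in the 3′UTR, had 3.05.

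**Figure D3:**
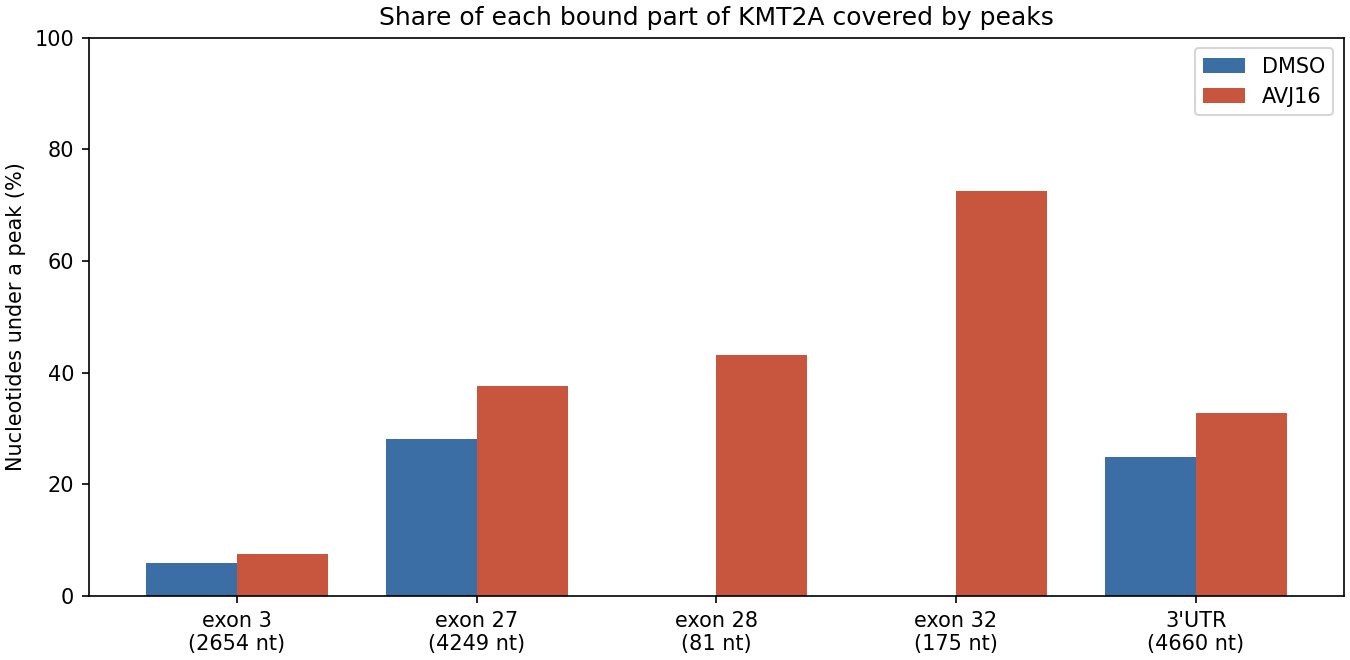
Share of nucleotides under a peak (y axis, %) in each part of KMT2A that holds a peak (x axis, with its length), for DMSO (blue) and AVJ16 (red), 1 merged list each and so without error bars. Every part has a taller AVJ16 bar, and exons 28 and 32 have an AVJ16 bar only.

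AVJ16 peaks covered more of the KMT2A mRNA than DMSO peaks did. The covered length was 2518 nt with DMSO and 3487 nt with AVJ16, which is 15.2% and 21.0% of the mRNA and a ratio of 1.38. In the CDS it went from 1357 to 1959 nt (ratio 1.44) and in the 3′UTR from 1161 to 1528 nt (ratio 1.32). Per length the 3′UTR was the more covered part in both lists, at 24.9% and 32.8% against 11.4% and 16.4% of the CDS. Both lists covered 2306 nt in common, or 91.6% of the DMSO length and 66.1% of the AVJ16 length. Over all genes the covered length was smaller with AVJ16, at 1458075 nt against 1607762 nt. Among the 79 genes with at least 20 peaks in each list, the median ratio was 1.06 and 1 gene had a higher ratio than KMT2A. KMT2A was picked for its AVJ16 peaks, so this rank is a description, and the RNA level of KMT2A was not analysed here.

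When peaks of both lists that touch or overlap were joined, KMT2A had 35 sites. Of these, 21 held peaks of both lists, 13 held AVJ16 peaks alone and 1 held a DMSO peak alone. The AVJ16 sites without a DMSO peak were 7 in the CDS and 6 in the 3′UTR and held 16 peaks. These 16 peaks had a median log2 fold enrichment of 3.54, with 7 of them under 3.5 and 3 at 4 or above. The 3 exceptions all lay in the 3′UTR, at 4.47 and 4.33 in the site from 118524481 to 118524555 and at 4.02 in the 28 nt peak at 118526518. The lone DMSO site, the 26 nt peak at 118525808, had 3.08, close to the threshold.

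Seen from the DMSO list, nearly every KMT2A peak had a counterpart. A peak was called shared where at least 1 nt of it lay under a peak of the other list on its strand. Of the 47 DMSO peaks, 46 overlapped an AVJ16 peak (97.9%, interval 88.9% to 99.6%), whereas 66.2% of all DMSO peaks did. In the other direction 59 of 77 AVJ16 peaks overlapped a DMSO peak (76.6%, 66.0% to 84.7%), and 70.8% of all AVJ16 peaks did. By region, 25 of 25 CDS peaks and 21 of 22 3′UTR peaks with DMSO were shared, against 64.6% and 70.5% of all peaks of these regions. These shares too are a description, given how KMT2A was picked.

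At the 46 shared peaks the enrichment was mostly higher with AVJ16 in the coding sequence, but not in the 3′UTR. KMT2A was picked for its AVJ16 peaks, so the differences here and below are a description. Each DMSO peak was set beside the AVJ16 peak with the longest overlap, and the difference is the AVJ16 minus the DMSO log2 fold enrichment. Over the gene its median was 0.19 (interval from order statistics 0.018 to 0.34), from −1.16 to 0.74, with an SD of 0.41 across peaks. Neighbouring peaks of 1 RNA are not independent, and the 46 DMSO peaks had 42 AVJ16 partners. The intervals of medians, here and below, are therefore too narrow and hold no error between replicates. AVJ16 was higher at 31 of 46 peaks, and at 44.7% of the 14759 shared peaks of all genes, whose median was −0.06. By more than 0.5, the study's limit, 6 KMT2A peaks were higher (12.6% of all shared peaks) and 4 were lower (20.1% of all shared peaks). The remaining 36 lay within the limit, so most single peaks of KMT2A differed by no more than 0.5. In the study this limit was applied to differences computed from normalized read counts over the same cluster, after an ANOVA filter. Here it was set on the enrichments of separately called peaks, without a test.

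The 25 coding peaks had a median difference of 0.34 (0.13 to 0.45), with 21 above 0, 5 higher by more than 0.5 and none lower by that much. Among all shared CDS peaks the median was −0.04, with 11.1% higher and 15.6% lower by more than 0.5. Exon 27 gave a median of 0.37 over 22 peaks, of which 19 were above 0, and the 3 peaks of exon 3 gave 0.034. The 21 peaks of the 3′UTR had a median of −0.10 (−0.32 to 0.22), with 10 above 0, 1 higher and 4 lower by more than 0.5. That lay near the median of all shared 3′UTR peaks, −0.07. Within the 3′UTR, the 7 peaks of the longest site had a median of 0.037 and none passed the limit, whereas the 14 behind it had a median of −0.28 and held all 5 peaks past it. Only peaks of at least 3 were listed, so a shared DMSO peak under 3.5 could not be lower by more than 0.5. DMSO values of KMT2A peaks began at 3.08 in the CDS and 3.05 in the 3′UTR, with medians of 3.66 and 3.94. The part of this floor in the contrast of the regions was not tested.

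The largest positive differences from the pairing of DMSO peaks lay together in the 2 longest sites of exon 27. Seen from the AVJ16 list a larger one stood in exon 3, where the 28 nt peak at 118472989 (4.72) was 1.09 above the DMSO peak it overlaps (3.63). The DMSO peak at 118505723 to 118505779 had 3.82 and its AVJ16 partner 4.56, a difference of 0.74, and its centre reads accgaactgtccccaaCATCATaaaaagat. Adjoining DMSO peaks at 118505145 and 118505169 had 3.68 and 3.60, and a single AVJ16 peak at 4.33 overlapped both, for differences of 0.65 and 0.73. The largest negative differences were in the 3′UTR. After the 22 nt peak (5.04 and 3.88) came the peak at 118526413 to 118526496, with 4.25 for DMSO and 3.48 for AVJ16, and that at 118525131 to 118525169, with 4.21 and 3.51. At 118526347 the values were 4.65 and 3.98. The DMSO values of these 4 peaks all lay above 4, where 15 of the 47 DMSO peaks lay. Those of the exon 27 peaks with the largest positive differences lay below 4. The part of a high or low starting value in the differences was not tested.

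**Figure D4:**
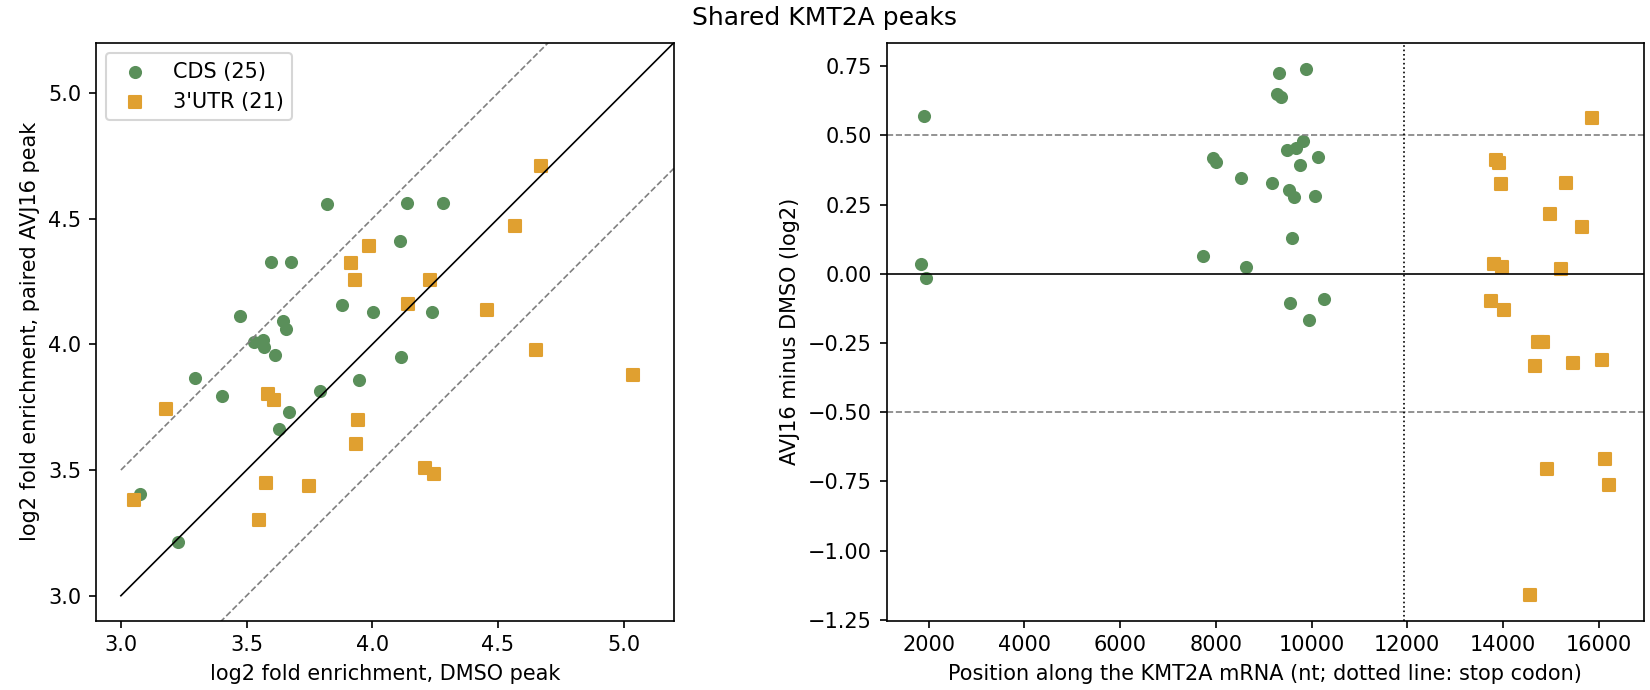
Left, log2 fold enrichment of the 46 shared KMT2A peaks with DMSO (x axis) and of the overlapping AVJ16 peak (y axis), with equality (solid line) and a difference of 0.5 (dashed lines); right, their difference along the mRNA (x axis, nt; dotted line, stop codon). Of the 25 CDS peaks (green circles) 21 lie above 0, and of the 21 3′UTR peaks (yellow squares) 10 do, with the 4 peaks below −0.5 all in the 3′UTR.

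The significance of the shared peaks was higher with AVJ16 nearly throughout the gene. The −log10 p was higher at 42 of 46 peaks (46.9% of all shared peaks), with medians of 32.1 with DMSO and 45.03 with AVJ16. In the CDS it was higher at 25 of 25 peaks, with medians of 35.6 and 64.2, and in the 3′UTR at 17 of 21, with 25.97 and 37.0. Over all genes the medians were 17.0 and 17.1. Because KMT2A was picked for its AVJ16 peaks, these counts and medians are a description. Several 3′UTR peaks thus had a lower enrichment and a higher −log10 p at once. A −log10 p depends on the number of reads as well as on the enrichment. The part of read depth in this was not tested, since the lists give no reads per peak.

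The contrast between coding sequence and 3′UTR was not particular to KMT2A. Subtracting the 3′UTR median from the CDS median gave 0.44 for KMT2A. Among the 38 genes with at least 5 shared peaks in each of these regions, 10 had a larger value, and the median was 0.021. For the median over the whole gene, 40 of 348 genes with at least 10 shared peaks stood above KMT2A. Both ranks are a description, given how KMT2A was picked.

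Divided by mRNA length, the peak number of KMT2A stood in the upper part of the bound genes but not at its top. Among the 4016 protein-coding genes bound in both lists, 20 had a longer mRNA. Per kb of mRNA KMT2A had 2.83 DMSO peaks and 4.64 AVJ16 peaks, against medians of 0.889 and 0.841, and 463 and 212 genes had more. By covered length per kb, 766 and 379 genes stood above it. Its peaks were short, with median lengths of 44 and 42 nt against 67 and 60 nt over all peaks. KMT2A was picked for its AVJ16 peaks, so these ranks are a description.

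Long coding exons were often bound in other genes too. Of 247 wholly coding exons of at least 1000 nt in the other genes bound in both lists, 36.03% had a peak, and of 37774 shorter ones 5.61% did. In KMT2A, 2 of 2 long and 2 of 32 short wholly coding exons had a peak. The long KMT2A exons were covered over 19.7% of their length with DMSO and 26.03% with AVJ16, the other long exons over 4.72% and 5.17%. The shorter exons of the other genes were covered over 2.12% and 2.40%. Shares of exons with a peak take no account of exon length, and their contrast was wider than that of the covered shares. The part of exon length in this was not tested.

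The letters under the peaks were compared with those under peaks of other genes, in windows of 30 nt at the peak centre read on the RNA strand. GGAC, a core of the motif at which mRNA adenosine is methylated, a mark that IGF2BP proteins are known to read, stood in 2 of 25 CDS windows with DMSO (8%) and in 6 of 42 with AVJ16 (14.3%), against 9.21% and 9.35% in other genes. In the 3′UTR it stood in 2 of 22 and 2 of 35 windows (9.09% and 5.71%), against 6.46% and 6.85%. UCCAG stood in 6 of 42 CDS windows with AVJ16 (14.3%, others 6.69%) and in 2 of 25 with DMSO (8%, others 6.62%), and in 0 of 22 and 2 of 35 windows of the 3′UTR (others 4.49% and 4.59%). These 2 motifs overlap in the most enriched exon 27 peak printed above. CAU, a triplet known from binding sites of this protein family, was added after values had been seen. It was less frequent in the 3′UTR windows of KMT2A than in those of other genes. It stood in 6 of 22 with DMSO (27.3%, others 46.8%) and in 9 of 35 with AVJ16 (25.7%, others 45.8%). In 3′UTR windows at the 5′ end of the peak it stood in 36.4% and 22.9%, against 48.2% and 47.6%. In the CDS, CAU was as frequent at the peak centre as elsewhere, at 44% and 45.2% against 45.1% and 45.7%. CGGAC, which contains GGAC, and UUUCCGAA were in no KMT2A window, and elsewhere in 0.369% to 0.889% and 0 to 0.0451% of windows. ACACC stood in 1 and 2 DMSO windows of the CDS and 3′UTR and in 0 and 1 AVJ16 windows (others 2.16% to 3.79%). CCNGUU stood in 0 and 1 with DMSO and in 1 and 1 with AVJ16 (others 2.64% to 3.27%). With these numbers of windows a share moves by several percent for 1 window, and adjoining windows overlap the same RNA.

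Covered RNA held more C than uncovered RNA of the same exon. In exon 27 the C content was 28.4% under a peak of either list and 25.2% elsewhere, and in the 3′UTR 26.3% and 21.0%. GGAC occurred 9 times in the covered and 11 times in the longer uncovered part of exon 27, or 5.39 and 4.27 per kb, and 5 and 3 times in those of the 3′UTR.

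Within the KMT2 family of histone H3 lysine 4 methyltransferases, no other member had as many peaks as KMT2A, per kb of mRNA or in all. For the number of AVJ16 peaks this followed from how KMT2A was picked. KMT2E had 9 DMSO and 12 AVJ16 peaks (1.16 and 1.54 per kb of mRNA) and KMT2C had 9 and 10 (0.534 and 0.593 per kb), all in the CDS. By covered length KMT2E stood nearer to KMT2A, at 109.7 and 154 nt per kb against 152 and 210.1 nt. SETD1B had 7 and 5 peaks (0.818 and 0.584 per kb), mainly in the 3′UTR, and KMT2D had 0 and 2. KMT2B, the closest relative of KMT2A, and SETD1A had none. The 6 members other than KMT2A together had 25 and 29 peaks, 18 of them shared, with a median difference of 0.10 and 1 peak past 0.5 in each direction.

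Core subunits and partners of the KMT2A complex were bound mainly in the 3′UTR. RBBP5 had 3 DMSO and 5 AVJ16 peaks, ASH2L 2 and 2, DPY30 1 and 1 and WDR5 0 and 1. MEN1, which encodes menin, had 9 and 9 peaks and with 3.32 per kb in both lists more DMSO peaks per kb than KMT2A. PSIP1, whose product LEDGF joins menin on chromatin, and HCFC1, a chromatin cofactor, had 4 and 3 each, and TASP1, HCFC2 and KAT8 none. The 5 shared peaks of the core subunits had a median difference of −0.07 and the 15 of the partners −0.04, beside −0.06 over all genes.

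**Figure D5:**
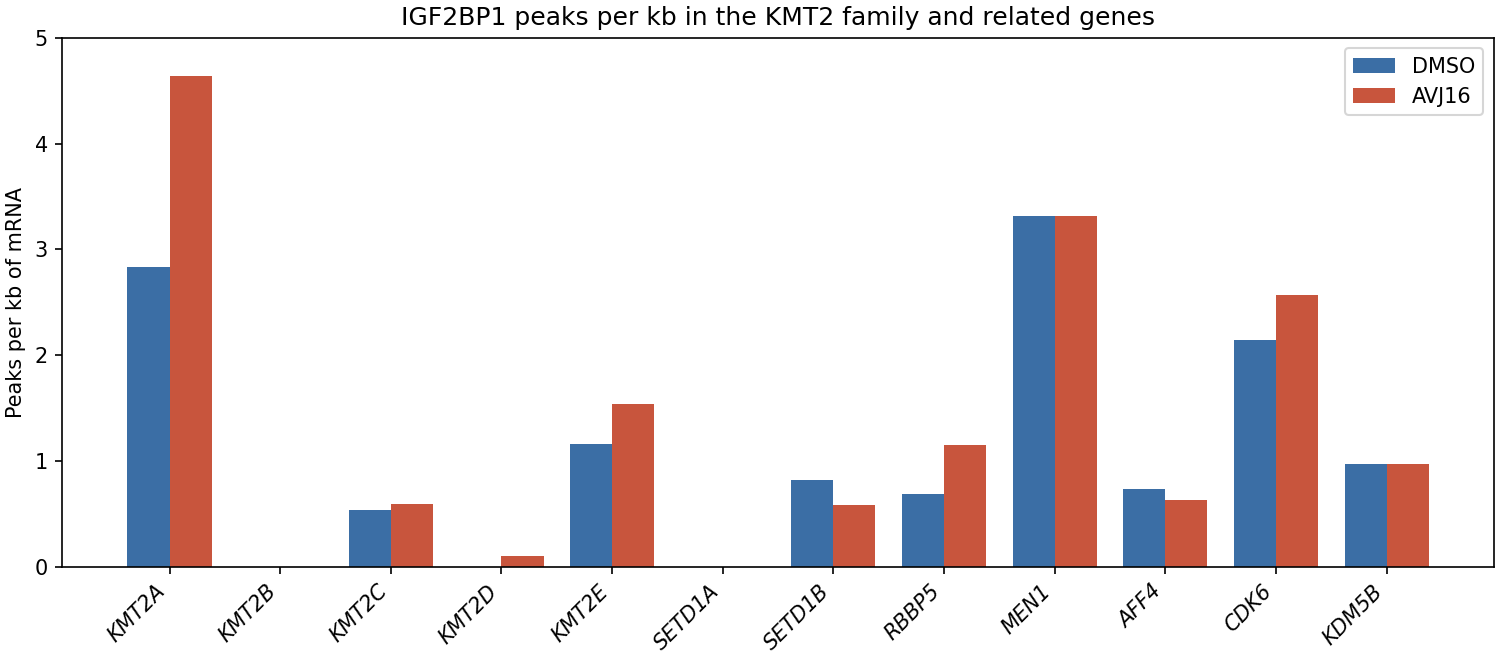
Peaks per kb of mRNA (y axis) with DMSO (blue) and AVJ16 (red) in the 7 KMT2 family genes and in the gene with the most peaks of each other list (RBBP5, MEN1, AFF4, CDK6 and KDM5B), 1 merged list each and so without error bars. KMT2A stands at 2.83 and 4.64, MEN1 at 3.32 in both, and KMT2B and SETD1A have no bar because they had no peak.

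Median differences lay below that of all genes for fusion partners and elongation factors (−0.26 over 8 shared peaks), for target genes (−0.30 over 33) and for demethylases (−0.40 over 9). All 9 of the demethylase peaks belong to KDM5B and 23 of the 33 target gene peaks to CDK6, so these medians rest mainly on single genes. Of the fusion partners and elongation factors, AFF4 had 7 and 6 peaks and EPS15 5 and 1, and MLLT3 and MLLT10 had 2 and 3 each, while MLLT6 had none. Of the target genes, CDK6, a cell cycle kinase, had 25 DMSO and 30 AVJ16 peaks, all in the 3′UTR, with a median difference of −0.39 and 10 of 23 shared peaks lower by more than 0.5. PBX3 had 7 and 9 peaks and HOXA10 3 and 3, whereas HOXA5 and MEIS1 had none. Of the demethylases that remove the mark, KDM5B had 9 and 9 peaks with a median of −0.40 and 4 of 9 lower, KDM1A had 2 and 0, KDM5A 1 and 0 and KDM5C none. Over the 31 genes of these lists and the complex, 95 DMSO and 97 AVJ16 peaks were counted once each, and 70 shared peaks had a median of −0.18, of which 7 were above 0.5 and 19 below −0.5. Of all shared peaks, 12.6% and 20.1% lay past these limits, so the counts of these small lists and of CDK6 and KDM5B are given without a call.

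The genes most like KMT2A in the division of covered nucleotides among CDS, 3′UTR and elsewhere, over 6 shares from both lists and 79 genes with at least 20 peaks in each, were TJP1, KDELR2 and CERS2. Their Euclidean distances were 0.037, 0.054 and 0.17. TJP1, a tight junction scaffold, had 21 DMSO and 22 AVJ16 peaks with a median difference of −0.14. KDELR2, a receptor that returns proteins to the endoplasmic reticulum, had 24 and 24 with 0.14, and CERS2, a ceramide synthase, had 25 and 30 with −0.08. That their peaks were divided between CDS and 3′UTR followed from how these genes were chosen. Their ratios of covered length with AVJ16 to DMSO lay nearer to 1, at 0.808, 0.963 and 1.09 against 1.38. KMT2A was picked for its AVJ16 peaks, so this contrast is a description.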

How the data were processed

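IGF2BP1 eCLIP was done on H1299 cells, with 2 IP and 2 SMInput libraries for each treatment. The authors used cutadapt for trimming, dropped repeat reads, used STAR for mapping, dropped PCR duplicates and ran CLIPper for peak calling (versions not given in the sources used here). How replicates were merged is not described, beyond the term IDR (irreproducible discovery rate) in the names of the lists. The log2 fold enrichment and the −log10 p-value of each peak were computed by the authors and deposited in 1 list per treatment, each normalized separately.

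Coordinates fit GRCh38, and GENCODE release 44 was used here, whereas the Methods name an earlier release. Peaks were assigned by strand, CDS before 3′UTR. The region rule and the pairing rules were tested on simulated data. Medians have 95% intervals from order statistics, which treat peaks as independent. Tools were numpy 2.4.6, pandas 2.3.3, scipy 1.17.1 and matplotlib 3.10.9 under Python 3.11.15.

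Named were KMT2A, the KMT2 family, from each of 5 other lists the 3 genes with the most peaks (ties included) and up to 5 unbound ones, the 3 genes most like KMT2A and, within it, the most enriched, longest, most different and lowest sites. Members and lists were chosen with earlier results of these data known. CAU, the ranks of the region contrast, and the other core subunits and sites named were added after values had been seen. HOXA9 and HOXA10 share 3 DMSO and 2 AVJ16 peaks, counted once in sums. Alternatives varied the thresholds, joining, overlap, pairing, limit and centring.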

Additional observations from a re-analysis of the deposited data

How the results depend on the processing

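Of 51 alternative values of the KMT2A results, 37 stayed within the limits set for a move and 14 moved. For the median difference these limits were its interval of 0.018 to 0.34. A turn of sign was defined for that median alone, and it did not turn. The 37 include settings that changed no value. A −log10 p threshold of 5 removed no KMT2A peak, as the lowest had 10.9. Keeping to the MANE Select transcript or ranking 3′UTR before CDS repeated the main values. With the enrichment threshold raised to 4, 15 DMSO and 29 AVJ16 peaks were left, 73.3% and 48.3% of them shared, with 0 higher and 0 lower by more than 0.5 and a median difference of 0.037 in place of 0.19. Joining touching peaks gave 30 and 42 sites. An overlap of at least 50% of both peaks gave shared shares of 63.8% and 39.0% and 2 lower peaks, pairing from the AVJ16 peaks gave 7 lower peaks, and a limit of 1 gave 0 higher and 1 lower. The causes were not tested beyond the fewer peaks that the stricter settings leave by construction. Across the alternatives the CDS median stayed between 0.22 and 0.41, while that of the 3′UTR ran from −0.25 (pairing from AVJ16 peaks) to 0.037 (50% overlap) and was 0.018 with the threshold of 4, so its direction is not settled. UCCAG in AVJ16 CDS windows dropped to 4.76% at the 5′ end of the peak, and peaks per kb in KMT2A came to 0.904 and 1.75 with that threshold. No paired analysis was possible because each list holds both replicates merged, and no replicate could be left out for the same reason. The unknown depth and the undescribed merging limit what a missing peak means.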
